A study of Mus musculus with 8 samples.

Results

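The genes described here are 35 targets of the tumour suppressor p53 and genes of cell death, taken by their gene names. Of these, 31 were measured, out of 19938 genes read on the arrays, each on the 1 transcript cluster that carried its symbol alone and had the highest mean. Trp53 itself, Cdkn1a, Bax and Ripk1 were not analysed here. The measured members fall into 6 roles. Mdm2 is the regulator of p53, and 7 are genes of cell cycle arrest and growth control. The BCL2 family gives 8 proapoptotic and 3 antiapoptotic genes. Another 4 are genes of death receptors and necroptosis, and 8 are genes of caspases, the apoptosome and their inhibitors. Which members p53 controls in these cells was not measured.

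All values come from purified round spermatids of adult C57BL/6 mice, the haploid germ cells that follow meiosis, on 8 Affymetrix arrays of 4 genotypes at Piwil1, the gene of the piRNA-binding protein MIWI. MIWI +/- combined a wild-type with a null allele, and MIWI +/KI a wild-type with a knock-in allele. MIWI -/- had null alleles alone, and MIWI -/KI joined a null to a knock-in allele. No genotype was wild-type at both alleles. What the knock-in changes is not described in the labels, while the title of the series concerns MIWI catalysis. The titles number the 2 arrays of a genotype as biological replicates. Spermatids of several gradient fractions were combined for each RNA preparation. Whether a preparation was 1 animal or several is something the sources used here do not state. The p-values therefore cover only the spread between preparations.

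When DNA is damaged, p53 is released from its ubiquitin ligase MDM2 and switches on genes that stop the cell cycle, repair DNA or start apoptosis. Proteins of the BCL2 family then decide whether mitochondria release cytochrome c, which assembles with APAF1 into the apoptosome and activates caspase 9. Death receptors at the cell surface act through caspase 8 instead, or, through RIPK1 and RIPK3, on MLKL, which breaches the plasma membrane in necroptosis. Germ cell apoptosis is part of normal spermatogenesis.

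The members with the largest differences were Mlkl, the executor of necroptosis, which was lower in both genotypes without a wild-type allele, and Gadd45b, a stress-inducible gene of growth control, which was higher in both. Their promoter windows are shown because these members carried the result, and that of Sesn1, a p53 target that encodes a stress-induced sestrin, because it is the only one with a match to the p53 motif among the called members that have a window. The windows are RefSeq promoters of assembly GRCm38.p6, from 250 bases before to 50 after a start, written along the gene's strand. They lie at chr10:80929841-80930140 on the plus strand for Gadd45b, at chr8:111338156-111338455 on the minus strand for Mlkl, and at chr10:41887189-41887488 on the plus strand for Sesn1, the 1 of its 2 windows that holds the match. Capitals mark matches to TATAAA, to TGACG, which is part of the CREB and CREM site TGACGTCA, and to the p53 decamer.
Gadd45b: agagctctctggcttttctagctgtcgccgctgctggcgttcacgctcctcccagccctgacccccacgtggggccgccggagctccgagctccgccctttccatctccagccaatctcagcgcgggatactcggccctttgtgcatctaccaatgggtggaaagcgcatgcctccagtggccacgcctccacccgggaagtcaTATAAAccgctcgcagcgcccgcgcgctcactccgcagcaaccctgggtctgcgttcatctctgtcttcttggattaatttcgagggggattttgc
Mlkl: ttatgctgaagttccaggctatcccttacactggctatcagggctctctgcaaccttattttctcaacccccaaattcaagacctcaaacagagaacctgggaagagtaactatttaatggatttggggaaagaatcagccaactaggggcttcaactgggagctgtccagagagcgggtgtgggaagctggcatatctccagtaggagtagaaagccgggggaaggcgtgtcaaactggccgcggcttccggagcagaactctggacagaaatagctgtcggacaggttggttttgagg
Sesn1: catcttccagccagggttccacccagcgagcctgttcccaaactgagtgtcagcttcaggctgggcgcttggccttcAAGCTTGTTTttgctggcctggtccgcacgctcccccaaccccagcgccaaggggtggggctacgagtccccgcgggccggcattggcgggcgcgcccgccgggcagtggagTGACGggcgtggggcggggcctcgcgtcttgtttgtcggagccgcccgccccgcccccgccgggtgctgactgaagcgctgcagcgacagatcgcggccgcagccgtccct
In the Gadd45b window TATAAA stood at -46 to -41 from the start, in capitals above. The Sesn1 window held the p53 decamer at -173 to -164 and TGACG at -61 to -57, and these matches did not overlap. None of the searched motifs matched in the Mlkl window. Of the 31 measured members 27 had a window, and Zmat3, Bik, Pmaip1 and Tnfrsf10b had none here. Among these, 5 held the p53 decamer on either strand (Bmf, Ccng1, Gadd45a, Mdm2 and Sesn1), against 8.36% of all 32851 windows. None held a full p53 site of 2 decamers, adjacent or parted by a short spacer, which 0.0731% of all windows held. TATAAA was found for 3 members (Gadd45b, Gadd45g and Xiap) and in 13.6% of all windows, TGACG for 9 members and in 20.8%, and TGACGTCA for Cycs and in 1.79%. A gene with several starts had several windows, so shares of members and of windows have different denominators, and a match is a description of letters alone.

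As a check on the labels, Piwil1 intensity was 389 and 371 on the arrays of MIWI +/-, 680 and 749 in MIWI +/KI, 196 and 151 in MIWI -/- and 672 and 696 in MIWI -/KI, so the null arrays were the lowest. The sources used here do not place its probes relative to the deleted part. Arrays of the same genotype correlated with r between 0.970 and 0.995 over all clusters, and arrays of different genotypes with r between 0.960 and 0.989. MIWI -/- replicate 2 correlated more with both MIWI +/KI arrays (0.9855 and 0.9858) than with its own replicate (0.9836). For MIWI -/KI replicate 1 the correlation with its own replicate (0.970) was below that with every array of the other genotypes (0.9737 to 0.9885). MIWI -/KI replicate 2 correlated best with MIWI -/- replicate 1 (0.9812). Summed over 12 markers, round spermatid intensity ranged from 31727 to 34654 in MIWI +/-, from 25772 to 26949 in MIWI +/KI, from 14223 to 14637 in MIWI -/- and from 15364 to 17471 in MIWI -/KI. In the pooled comparison, both genotypes that lack a wild-type allele against both that carry one, 6 of these 12 fell and 0 rose. Those that fell were Akap4, Prm1, Prm2, Tnp1, Tnp2 and Tssk6, while 3 of the 12 differed upwards without passing. Acr passed as higher in MIWI -/- against MIWI +/-. Of the Sertoli markers 4 of 11 fell, and their sum ran from 1748 to 2325 with a wild-type allele and from 1168 to 1548 without one. Of 11 spermatocyte markers 1 rose and 1 fell, with the highest sum, 7343, in MIWI -/KI replicate 2. Of 10 spermatogonia markers 1 rose, of 8 peritubular and endothelial markers 1 rose, and of 5 Leydig markers 0 passed, the sum of the last being highest in MIWI -/- replicate 1 (938). No marker of any list was listed at 0 on any array. The part of these differences in cell makeup in the member results was not tested. In such bulk samples fewer cells of a type and less RNA per cell cannot be told apart.

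In MIWI -/- against MIWI +/-, Gadd45b, Zmat3, Bcl2l1 and Casp2 were higher and Mlkl was lower (adjusted p under 0.05 by limma over all clusters). These 5 of 31 members, 16.1%, stand beside 6.13% of all genes (2.6% higher and 3.53% lower). The median log2 difference of the members was 0.08, against 0.01 over all genes. In MIWI -/KI against MIWI +/-, Gadd45b, Sesn1 and Casp2 were higher and Mlkl and Tnfrsf10b were lower, again 5 of 31, beside 6.23% of all genes (3.11% higher and 3.12% lower), with medians of 0.06 and -0.00. Both comparisons share the MIWI +/- arrays. MIWI -/KI against MIWI +/KI, which shares no array with the first comparison, gave rises of Gadd45b, Sesn1 and Pmaip1 and a fall of Mlkl, 4 of 31, beside 2.43% of all genes (1.14% higher and 1.29% lower), with medians of 0.02 and -0.03. In the pooled comparison 4 members rose (Gadd45b, Sesn1, Casp2 and Pmaip1) and 2 fell (Mlkl and Tnfrsf10b), beside 8.26% of all genes (4.33% higher and 3.93% lower). There, 6 members were higher and 3 lower on all arrays that lack the allele than on all that carry it, beside 15.9% of all genes (9.38% higher and 6.54% lower). In all 8 members passed in at least 1 comparison and 23 in none. Of these 20 calls 8 were kept under every alternative setting, namely all 4 each of Gadd45b and Mlkl, and 0 reversed. Each of the other 12 was lost when at least 1 array was left out, as given gene by gene below. At least 1 call each of Sesn1, Pmaip1, Tnfrsf10b and Casp2 was also lost with the replicate block. The same held when only the groups compared were fitted.

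**Figure D1:**
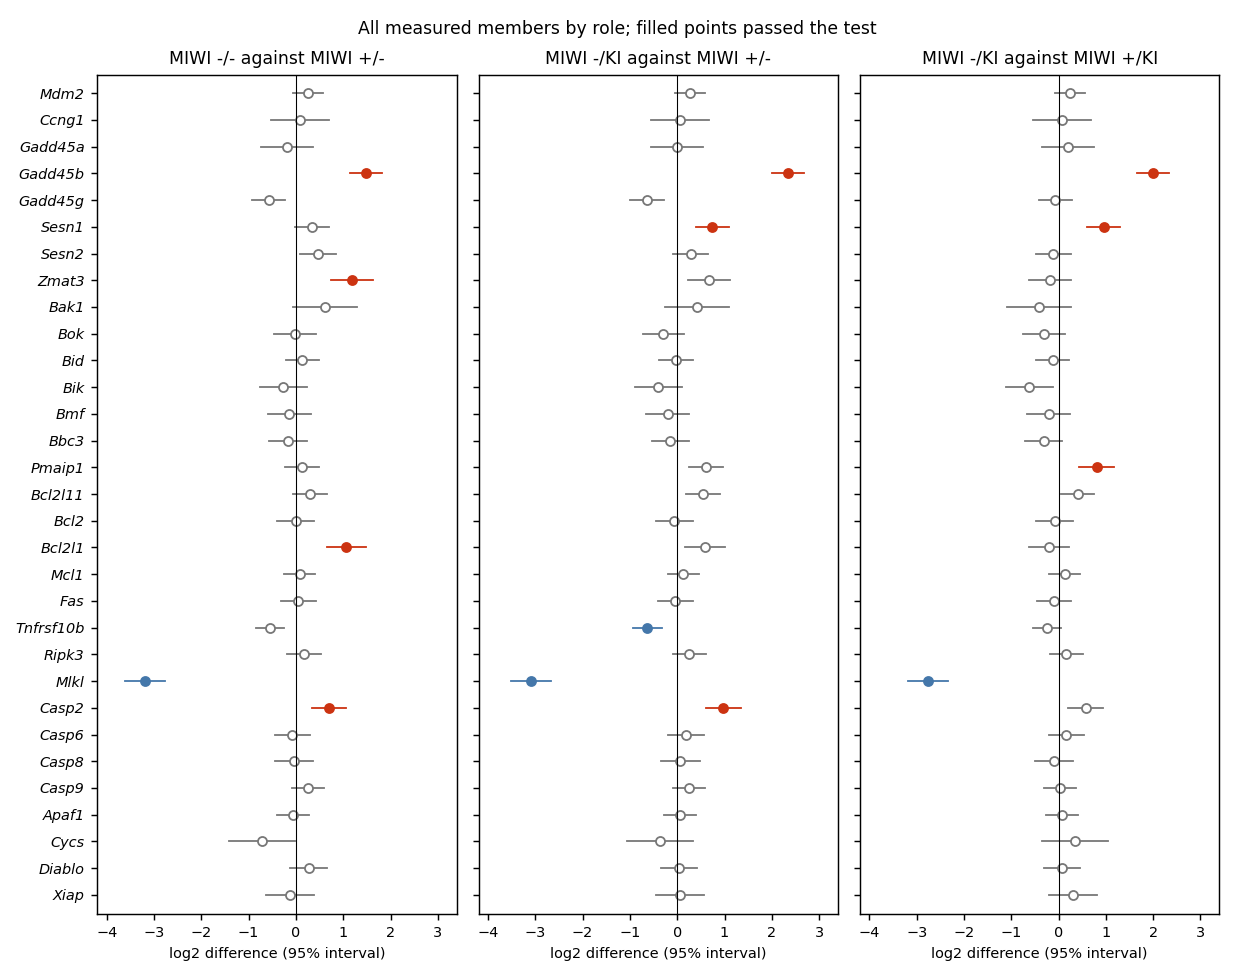
Log2 difference of each of the 31 measured members (rows, ordered by role) for MIWI -/- minus MIWI +/-, MIWI -/KI minus MIWI +/- and MIWI -/KI minus MIWI +/KI (panels), with unadjusted 95% intervals from limma; filled points passed the test, red for higher and blue for lower. Mlkl lies at -3.20, -3.10 and -2.77 and Gadd45b at 1.48, 2.34 and 2.00, and the 23 members that passed nowhere lie between -0.71 and 0.62 in the first panel.

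Mdm2, whose product marks p53 for degradation and which is itself a p53 target, passed in none of the comparisons. Its intensity was 977 and 837 in MIWI +/-, 922 and 934 in MIWI +/KI, 1145 and 1012 in MIWI -/- and 1127 and 1058 in MIWI -/KI. Every array without a wild-type allele was above every array with one, yet the difference was 0.24 on the log2 scale (SE 0.10, limma adjusted p = 0.238).

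Of the 7 genes of cell cycle arrest and growth control, 2 were higher in MIWI -/- than in MIWI +/- and 0 were lower. Of all genes 2.6% were higher in that comparison. The counts were the same for MIWI -/KI set beside MIWI +/- (3.11% of all genes higher) and beside MIWI +/KI (1.14%). Gadd45b (transcript cluster 10364950) belongs to the GADD45 family of small stress proteins that act on stress kinases and on DNA demethylation. Its intensity was 81.5 and 84.0 in MIWI +/-, 107 and 103 in MIWI +/KI, 220 and 242 in MIWI -/- and 434 and 406 in MIWI -/KI. The means were 82.7 ± 1.80 (SD, n = 2), 105 ± 3.12, 231 ± 15.4 and 420 ± 20.0 in the same order, and no genotypes overlapped. Gadd45b was 2.79-fold higher in MIWI -/- than in MIWI +/- (log2 difference 1.48, SE 0.15, limma adjusted p = 0.00117). It was 5.08-fold higher in MIWI -/KI than in MIWI +/- (2.34, adjusted p = 0.000215) and 3.99-fold higher than in MIWI +/KI (2.00, adjusted p = 0.0012). Between the genotypes with no wild-type allele, MIWI -/KI stood 0.86 above MIWI -/- (unadjusted 95% interval 0.53 to 1.20), which did not pass over all clusters (adjusted p = 0.871). No other measured family member passed. Gadd45a, a p53 target that acts in arrest and repair, had intensities from 61.8 to 101 and differences from -0.20 to 0.19 across the 5 comparisons of genotypes. Gadd45g, its relative, was 89.6 and 105 in MIWI +/- and between 58.5 and 66.4 on all arrays of the other genotypes. The MIWI +/- arrays of Gadd45g thus stood apart, but its differences of -0.58 in MIWI -/- (adjusted p = 0.0827), -0.64 in MIWI -/KI (0.0577) and -0.57 in MIWI +/KI (0.221) did not pass. They did pass under 4 alternative settings for MIWI -/- (adjusted p from 0.0374 to 0.0473), 6 for MIWI -/KI (0.0223 to 0.0462) and 1 for MIWI +/KI (0.0229).

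Sesn1 (cluster 10362811) rose where the knock-in allele stood without a wild-type one. Its product is a sestrin, which restrains mTORC1 and oxidative stress, and its window is the one shown above with a p53 decamer. Its intensity was 135 and 120 in MIWI +/-, 105 and 116 in MIWI +/KI, 155 and 167 in MIWI -/- and 211 and 215 in MIWI -/KI. The arrays without a wild-type allele lay above all others, and those of MIWI -/KI were the highest. The log2 difference was 0.74 against MIWI +/- (SE 0.15, limma adjusted p = 0.033) and 0.95 against MIWI +/KI (adjusted p = 0.025), but 0.34 in MIWI -/- against MIWI +/- (adjusted p = 0.346). Whether the response differed between the pairs was tested directly and did not pass (difference 0.61, SE 0.22, adjusted p = 0.323). Both calls were lost without either MIWI +/- array, either MIWI +/KI array or MIWI -/KI replicate 2 (adjusted p from 0.0631 to 0.267 against MIWI +/- and from 0.0582 to 0.306 against MIWI +/KI). The call in the pooled comparison (0.64, adjusted p = 0.011) was lost without MIWI +/- replicate 2 (0.0738), or without MIWI +/KI replicate 1 (0.0955) or 2 (0.0637). Its relative Sesn2 did not pass, with arrays between 80.7 and 130.

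Zmat3 (cluster 10497673), a p53 target whose RNA-binding product acts on mRNA stability and splicing, was higher in MIWI -/- but also stood above MIWI +/- in the other genotypes. Its intensity was 110 and 95.9 in MIWI +/-, 177 and 195 in MIWI +/KI, 201 and 272 in MIWI -/- and 175 and 153 in MIWI -/KI. The arrays of MIWI +/- were the lowest, and those of MIWI -/KI lay just below those of MIWI +/KI. It rose 2.28-fold in MIWI -/- against MIWI +/- (log2 difference 1.19, SE 0.19, limma adjusted p = 0.0123). The difference was 0.86 in MIWI +/KI (adjusted p = 0.16) and 0.68 in MIWI -/KI (adjusted p = 0.106) against MIWI +/-, and -0.18 between the knock-in genotypes (adjusted p = 0.688). The call was lost without MIWI +/- replicate 1 (adjusted p = 0.0748) or 2 (0.127) or MIWI -/- replicate 2 (0.0722). Ccng1, which encodes the p53 target cyclin G1, spread from 123 to 209 within MIWI -/KI alone and showed no difference beyond 0.09 in size in any of these comparisons.

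**Figure D2:**
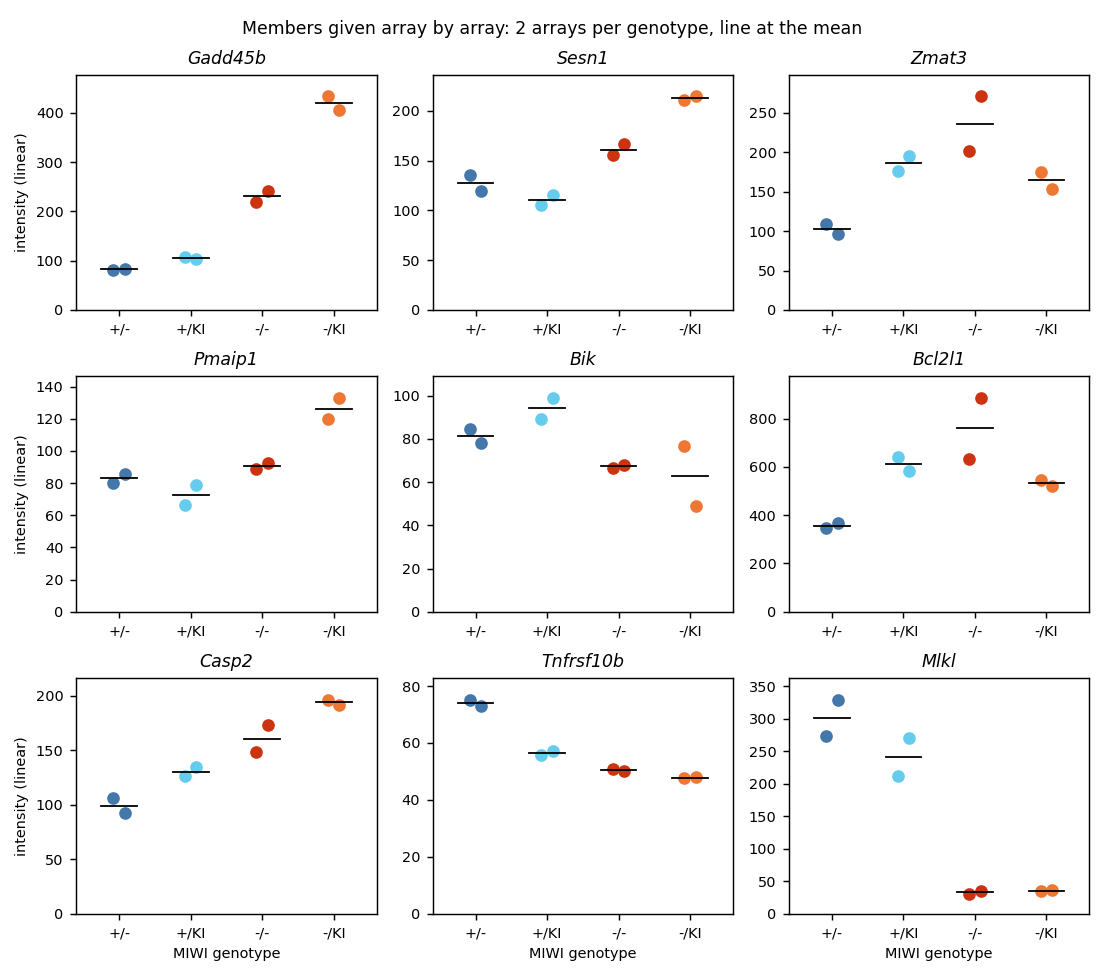
Linear intensity (y axis, from 0) of the 9 members given array by array, in the 4 MIWI genotypes (x axis); each point is 1 array and each line the mean of 2. Mlkl falls from at least 212 with a wild-type allele to at most 36.2 without one, and Gadd45b rises from at most 107 to at least 220.

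Of the 8 measured proapoptotic members of the BCL2 family, 0 passed in MIWI -/- or MIWI -/KI against MIWI +/-, beside 6.13% and 6.23% of all genes. Between the knock-in genotypes 1 passed, beside 2.43%. That was Pmaip1 (cluster 10456357), which encodes the BH3-only protein NOXA, a classical p53 target. Its intensity was 80.2 and 85.8 in MIWI +/-, 66.2 and 78.9 in MIWI +/KI, 88.8 and 92.4 in MIWI -/- and 120 and 133 in MIWI -/KI. The MIWI -/KI arrays stood clear of all others, while those of MIWI -/- lay just above MIWI +/-. Pmaip1 was 1.75-fold higher in MIWI -/KI than in MIWI +/KI (log2 difference 0.80, SE 0.16, limma adjusted p = 0.0496), and 0.47 higher in the pooled comparison (adjusted p = 0.0486). Both calls were at the edge of the threshold. Leaving out any 1 array other than MIWI -/KI replicate 1 lost them (adjusted p from 0.0608 to 0.431 and from 0.0634 to 0.272).

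Bik (cluster 10425801), another BH3-only gene, was among the 8 largest differences of the pooled comparison but did not pass. Its intensity was 84.5 and 77.9 in MIWI +/-, 89.3 and 99.0 in MIWI +/KI, 66.4 and 68.1 in MIWI -/- and 76.7 and 48.9 in MIWI -/KI. All arrays without a wild-type allele were lower, with MIWI -/KI replicate 1 close to MIWI +/- replicate 2. The difference was -0.44 (SE 0.15, limma adjusted p = 0.156), and without MIWI -/KI replicate 1 it was -0.61 (adjusted p = 0.00927). Bbc3, which encodes PUMA, a further BH3-only target of p53, stood -0.17 from MIWI +/- in MIWI -/- and -0.15 from it in MIWI -/KI. Bak1, a pore-forming effector at the mitochondrion, differed by 0.83 in MIWI +/KI against MIWI +/- (unadjusted 95% interval 0.15 to 1.51, adjusted p = 0.33), with MIWI -/- arrays at 112 and 203. Bcl2l11, the gene of the BH3-only protein BIM, was highest in MIWI -/KI (162 and 161, against 109 and 112 in MIWI +/-), a difference of 0.55 (unadjusted 95% interval 0.19 to 0.90) that did not pass (adjusted p = 0.104). Bid, Bmf and Bok, which encode a caspase-activated BH3 protein, a BH3-only protein and a BAX-like effector, had differences between -0.31 and 0.13 in the 5 comparisons of genotypes.

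Of the 3 antiapoptotic members, Bcl2l1 rose in MIWI -/-, beside 2.6% of all genes higher, and Bcl2 and Mcl1 passed nowhere. Bcl2l1 (cluster 10488655) encodes BCL-XL, which holds the pore formers in check. Its intensity was 347 and 367 in MIWI +/-, 641 and 581 in MIWI +/KI, 632 and 887 in MIWI -/- and 545 and 520 in MIWI -/KI. As for Zmat3, the MIWI +/- arrays were the lowest and the other genotypes lay above them. Bcl2l1 was 2.10-fold higher in MIWI -/- than in MIWI +/- (log2 difference 1.07, SE 0.18, limma adjusted p = 0.0159). It differed by 0.77 in MIWI +/KI (adjusted p = 0.175) and by 0.58 in MIWI -/KI (adjusted p = 0.146) against MIWI +/-. The call was lost without MIWI +/- replicate 1 (adjusted p = 0.13) or 2 (0.109) or MIWI -/- replicate 2 (0.064). Mcl1 ranged from 462 to 557 and Bcl2 from 51.4 to 65.6 over the 8 arrays. Bcl2 was among the 7 members whose mean lay below the median of all clusters, 69.9.

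Death receptor and necroptosis genes held the largest member difference, in Mlkl (cluster 10581813), the pseudokinase that RIPK3 phosphorylates. Mlkl intensity was 274 and 330 in MIWI +/-, 212 and 270 in MIWI +/KI, 30.7 and 34.9 in MIWI -/- and 34.2 and 36.2 in MIWI -/KI. Means were 302 ± 39.6 (SD, n = 2) in MIWI +/-, 241 ± 41.2 in MIWI +/KI, 32.8 ± 2.99 in MIWI -/- and 35.2 ± 1.43 in MIWI -/KI. The arrays of MIWI -/- and MIWI -/KI overlapped, those of MIWI +/KI lay just below those of MIWI +/-, and a wide gap parted the former from the latter. Mlkl was 9.19-fold lower in MIWI -/- than in MIWI +/- (log2 difference -3.20, SE 0.18, limma adjusted p = 0.000106). It was 8.55-fold lower in MIWI -/KI than in MIWI +/- (-3.10, adjusted p = 0.000172) and 6.80-fold lower than in MIWI +/KI (-2.77, adjusted p = 0.0008). MIWI -/KI and MIWI -/- differed by 0.11 (unadjusted 95% interval -0.32 to 0.53), and MIWI +/KI and MIWI +/- by -0.33 (adjusted p = 0.57). All 4 arrays that lack a wild-type allele had Mlkl below the median of all clusters, 69.9.

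Ripk3, the kinase that activates MLKL and the 1 partner of it that was measured, did not pass. Its intensity was 100 and 111 in MIWI +/-, 114 and 109 in MIWI +/KI, 116 and 121 in MIWI -/- and 117 and 134 in MIWI -/KI. Its largest difference, in MIWI -/KI against MIWI +/-, was 0.25 (unadjusted 95% interval -0.10 to 0.60, limma adjusted p = 0.522). Markers of blood and macrophages, cells that also express Mlkl, summed to between 2160 and 2301 in MIWI +/-, 1566 and 1710 in MIWI +/KI, 1267 and 1278 in MIWI -/- and 1271 and 1395 in MIWI -/KI. Of these 8 markers 4 fell in the pooled comparison, Aif1, Alas2, Cd74 and H2-Aa, beside 3.93% of all genes lower. Another 3 differed upwards, by up to 0.26 on the log2 scale, without passing. Ptprc, which all white blood cells carry, lay between 52.2 and 68.6 on all arrays. Their part in the Mlkl result was not tested. Of the 12 round spermatid markers 6 fell in the pooled comparison, as given above, and their part was not tested either.

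Tnfrsf10b (cluster 10416230), the mouse receptor for the death ligand TRAIL and a p53 target, was lower in MIWI -/KI. Its intensity was 75.3 and 72.8 in MIWI +/-, 55.8 and 57.2 in MIWI +/KI, 50.7 and 50.2 in MIWI -/- and 47.6 and 48.1 in MIWI -/KI. The replicates lay close together and the genotypes did not overlap, but the levels lay near or below the median of all clusters. The log2 difference was -0.63 in MIWI -/KI (SE 0.13, limma adjusted p = 0.0329) and -0.55 in MIWI -/- (adjusted p = 0.055) against MIWI +/-, and -0.40 in the pooled comparison (adjusted p = 0.0427). Both calls were lost when any 1 array other than those of MIWI -/KI was left out (adjusted p from 0.0561 to 0.226 and from 0.101 to 0.227). The difference in MIWI -/- passed under 7 alternative settings (adjusted p from 0.0256 to 0.0485). Fas, the receptor for FAS ligand, had intensities from 27.3 to 36.5 and passed nowhere.

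Of the 8 genes of caspases, the apoptosome and their inhibitors, Casp2 alone passed, in MIWI -/- and MIWI -/KI against MIWI +/- (2.6% and 3.11% of all genes higher) and in the pooled comparison (4.33%). Casp2 (cluster 10537728) encodes an initiator caspase that the PIDDosome activates. Its intensity was 106 and 92.0 in MIWI +/-, 126 and 134 in MIWI +/KI, 149 and 173 in MIWI -/- and 197 and 191 in MIWI -/KI. The genotypes stood in that order without overlap. Casp2 was 1.97-fold higher in MIWI -/KI than in MIWI +/- (log2 difference 0.98, SE 0.16, limma adjusted p = 0.0126) and 1.62-fold higher in MIWI -/- (0.70, adjusted p = 0.0495), while the 0.58 of MIWI -/KI over MIWI +/KI did not pass (adjusted p = 0.126). The call in MIWI -/KI was lost without MIWI +/- replicate 1 (adjusted p = 0.0751) or 2 (0.137). That in MIWI -/- was lost without any 1 array other than those of MIWI -/KI. It was also lost in limma with an offset of 16 (adjusted p = 0.052), quantile normalization (0.0685) and robust variances (0.0504). The replicate block (0.0733) and fitting only the groups compared (0.0912) lost it too. In the pooled comparison the difference was 0.64 (adjusted p = 0.0139), lost without MIWI +/- replicate 1 (0.0502) or 2 (0.0861) or MIWI +/KI replicate 1 (0.105) or 2 (0.0802).

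The other 7 genes of this role passed nowhere. Casp9, the initiator of the apoptosome, was 141 and 141 in MIWI +/- and between 157 and 178 on all other arrays, a difference of 0.25 in MIWI -/- (limma adjusted p = 0.517). Apaf1, its scaffold, had the narrowest range of the 22 members outside the array plots, 74.2 to 88.5, a ratio of 1.19. Cycs, the gene of cytochrome c and the 1 member with 3 clusters, had the widest, from 132 to 324, a ratio of 2.46, with 249 and 132 within MIWI -/- alone. Casp6 and Casp8, an executioner and the initiator at death receptors, ranged from 83.9 to 115 and from 32.8 to 44.0. Xiap, which inhibits caspases, ranged from 29.3 to 46.5. Diablo, whose product relieves that inhibition, ranged from 486 to 715.

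In the main fit of all 8 arrays, no member passed between the genotypes that carry a wild-type allele, nor between those that lack one. In MIWI +/KI against MIWI +/-, 0 of 31 members passed in limma, beside 0.0953% of all genes, and 9 had an unadjusted p under 0.05. The count depended on the fit: 19 genes passed in all, against 1553 genes and 5 members with array weights and 1474 genes and 4 members when only these groups were fitted. Zmat3 passed in both (adjusted p = 0.0133 and 0.0225), and so did Bcl2l1 (0.0153 and 0.0209) and Bak1 (0.0468 and 0.0480). In MIWI -/KI against MIWI -/-, 0 members passed, beside 0% of all genes, and 5 had an unadjusted p under 0.05, Gadd45b among them. The difference between the paired differences, that is MIWI -/KI minus MIWI +/KI against MIWI -/- minus MIWI +/-, passed for 0 members, beside 0% of all genes, with 9 at an unadjusted p under 0.05. The share of all genes at that unadjusted threshold was not counted, so these unadjusted counts are not a result about the members. A p that misses the threshold does not show that genotypes were alike. In the plot of both pairs, Gadd45b and Mlkl passed in both, Sesn1 and Pmaip1 in the knock-in pair and Zmat3, Bcl2l1 and Casp2 in the null pair.

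**Figure D3:**
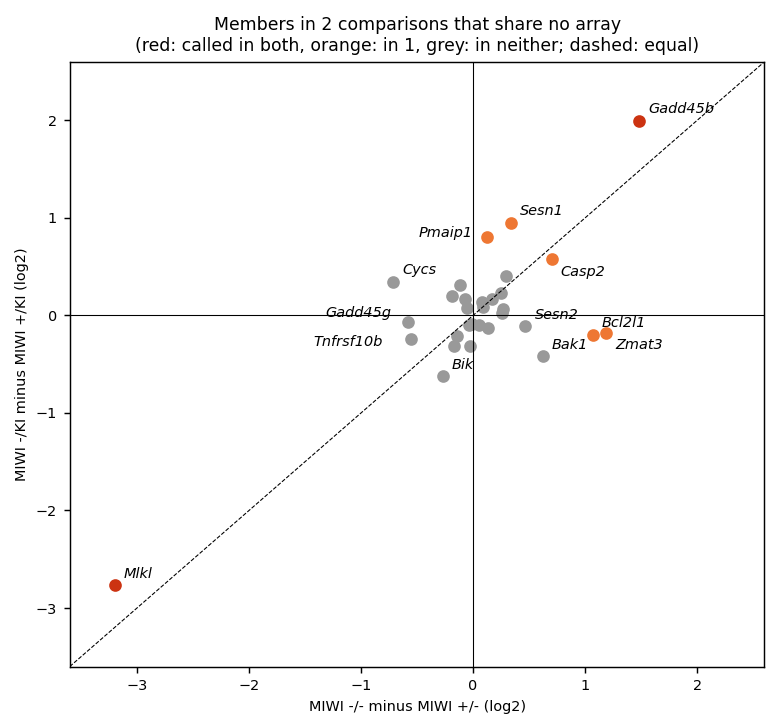
Log2 difference of each measured member in MIWI -/- minus MIWI +/- (x axis) against MIWI -/KI minus MIWI +/KI (y axis), 2 comparisons that share no array; red points passed in both, orange in 1 and grey in neither, and the dashed line marks equal differences. Gadd45b (1.48 and 2.00) and Mlkl (-3.20 and -2.77) lie far out near that line, and Zmat3 (1.19 and -0.18) and Bcl2l1 (1.07 and -0.20) lie off it.

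Further genes of the same pathways were read from 5 lists, to be set beside the 4.33% of all genes that were higher and 3.93% that were lower in the pooled comparison. Among 19 regulators of p53 and damage kinases, Atr, the kinase of replication stress, rose in MIWI -/- (log2 difference 1.25, SE 0.13, limma adjusted p = 0.00123). It also rose in MIWI -/KI, both when set against MIWI +/- (1.35, adjusted p = 0.000997) and when set against MIWI +/KI (1.05, adjusted p = 0.00861). Its intensity was 1276 and 1253 in MIWI +/-, 1512 and 1603 in MIWI +/KI, 3035 and 2962 in MIWI -/- and 2914 and 3562 in MIWI -/KI, so that no array without a wild-type allele overlapped one with it. The last of these calls was lost without MIWI +/KI replicate 1 (0.144) or 2 (0.107). The gene of its partner, Atrip, rose in the pooled comparison (0.45, adjusted p = 0.0416). The 28 measured further p53 targets had 0 calls by limma in all 7 comparisons, with 3 and 5 at an unadjusted p under 0.05 in MIWI -/- and MIWI -/KI against MIWI +/-, and medians of 0.12 and 0.08.

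Of 13 further genes listed with the BCL2 family 2 fell and 1 rose in the pooled comparison, beside 3.93% and 4.33% of all genes. Bag1 encodes a co-chaperone that binds BCL2 and is not itself of the family. It stood at a log2 difference of -1.78 in MIWI -/- against MIWI +/- (SE 0.17, limma adjusted p = 0.000953). MIWI -/KI differed by -1.75 from MIWI +/- (adjusted p = 0.00116) and by -1.02 from MIWI +/KI (adjusted p = 0.0264). The last was lost without either MIWI +/- array, either MIWI +/KI array or MIWI -/KI replicate 2 (adjusted p from 0.071 to 0.28). Bcl2l14, a BCL2-like gene, fell by 1.14 in MIWI -/- (adjusted p = 0.0028) and by 0.86 in MIWI -/KI (0.0106, and 0.0845 or 0.116 without MIWI +/- replicate 1 or 2). Bcl2l13, which encodes a mitochondrial BCL2-like protein, rose by 0.47 in the pooled comparison (adjusted p = 0.046) and by 0.69 in MIWI -/KI against MIWI +/- (0.0473), the latter lost without any 1 array.

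Among 20 caspase, inhibitor and nuclease genes Birc2, an inhibitor of apoptosis that ubiquitinates RIPK1, rose by 0.93 in the pooled comparison (SE 0.17, limma adjusted p = 0.017) and by 1.19 in MIWI -/KI against MIWI +/- (0.0321), beside 4.33% and 3.11% of all genes higher. Both Birc2 calls were lost without either MIWI +/- array or either MIWI +/KI array, the former also without MIWI -/- replicate 1 and the latter without MIWI -/KI replicate 2 (adjusted p from 0.054 to 0.204). Of 21 death receptor and necroptosis genes, the signalling adaptor Traf2 (0.51) and the linear-ubiquitin hydrolase Otulin (0.45) rose and Traf1 fell (-0.52) in the pooled comparison, beside 4.33% of all genes higher and 3.93% lower. The calls of Atrip, Bcl2l13, Traf1, Traf2 and Otulin in that comparison were each lost without any 1 array of MIWI +/-, MIWI +/KI or MIWI -/- (adjusted p from 0.0618 to 0.237).

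**Figure D4:**
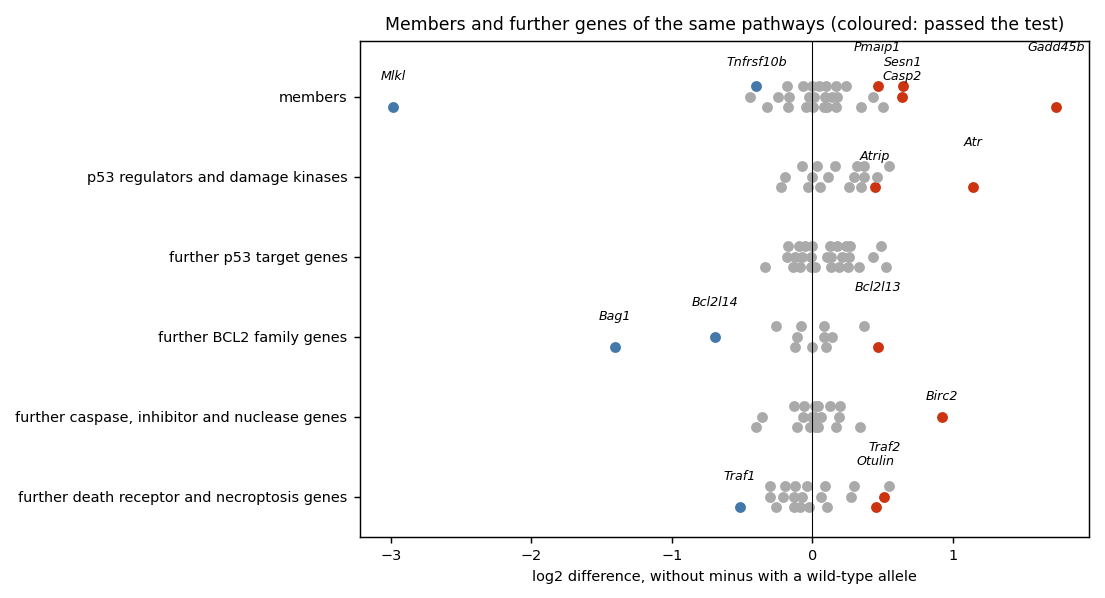
Log2 difference without minus with a wild-type allele (x axis) of the measured members and of 5 lists of further pathway genes (rows); each point is a gene, red where it rose and blue where it fell by the test, with its name. Mlkl (-2.98) and Gadd45b (1.74) lie farthest out, followed by Bag1 (-1.40) and Atr (1.15), and no further p53 target is coloured.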

How the data were processed

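Total RNA of round spermatids was measured on 8 arrays, 2 for each of 4 genotypes. The deposited table holds linear intensity values per transcript cluster, made by the authors with RMA per the submitters' processing notes. The RMA version is unstated in the sources used here. Of 35512 clusters 21789 had a single symbol in the platform annotation. In 8 cells, none of a member, a value more than 100 times its cluster's median elsewhere was set missing. On log2 intensity, limma 3.58.1 (R 4.3.3) fitted 1 mean per genotype over all 8 arrays, with variances moderated along intensity (residual degrees of freedom 4, prior 3.976). The two-sided tests were adjusted by Benjamini-Hochberg over all clusters, with a threshold of 0.05. Folds are differences of mean log2 intensity. Members called in any comparison or among the 8 largest differences of the pooled comparison are given array by array, and of other lists the called genes are named. Alternatives changed the offset, normalization, filter, cluster choice, variance model, array weights, groups fitted, replicate block, the 8 cells and single arrays. The titles state no pairing of arrays by replicate number, and the main fit used none. Deviations between replicates correlated between genotypes with r from -0.2578 to 0.2968, which does not settle whether arrays were paired. The scripts were tested on simulated data. The members and lists were chosen with earlier results of these data known. The number of arrays limits the precision, and near-identical genes may share probes.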

Additional observations from a re-analysis of the deposited data

Results flagged for a closer look

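For 4 members the null pair and the knock-in pair pointed in opposite directions, without overlap of arrays inside a pair. The share of all genes with this pattern was not counted, so the count is not a result about the members. The difference between the pairs was tested with limma. It was -1.37 for Zmat3 (1.19 in the null pair and -0.18 in the knock-in pair, adjusted p = 0.127), -1.27 for Bcl2l1 (1.07 and -0.20, adjusted p = 0.129), -0.58 for Sesn2 (0.47 and -0.11, adjusted p = 0.38) and 1.06 for Cycs (-0.71 and 0.35, adjusted p = 0.391). None passed the threshold. Without MIWI -/- replicate 1 the difference was -1.59 for Zmat3 and -1.51 for Bcl2l1. In the limma fit on 1 row per gene, the values of these genes were the same and passed (both adjusted p = 0.021). Each has 1 cluster, so nothing was averaged for them. That fit held fewer rows, over which the moderated variances and the adjustment were computed anew. Why they passed there was not tested. For Zmat3 and Bcl2l1 the MIWI +/- arrays were the lowest of all genotypes, and the MIWI +/KI means stood closer to the MIWI -/- means than to the MIWI +/- means.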

How the results depend on the processing

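Of the 20 calls among members 8 held under every alternative (all those of Gadd45b and Mlkl), 12 were lost under at least 1, and 0 reversed. Of the other pairs of member and comparison, 18 passed under at least 1 alternative. Leaving out 1 array moved the number of members called between 2 and 7 for MIWI -/- against MIWI +/- (5 with all arrays), 2 and 8 for MIWI -/KI against MIWI +/- (5), 2 and 5 for MIWI -/KI against MIWI +/KI (4), 2 and 7 in the pooled comparison (6) and 0 and 2 for the difference between the paired differences (0). Each of these fits left 1 array in a genotype. In every comparison just given, the most members were called where the most of all genes were called. These member counts moved with those of all genes and are not a result about the members. With all clusters of a gene averaged, fewer rows were tested. There 8 members passed for MIWI -/KI against MIWI +/-, 2 for MIWI +/KI against MIWI +/- and 2 for the difference between the differences. Over all genes 1942, 362 and 590 passed there, against 1243, 19 and 0 in the main fit. Array weights gave 3 members for MIWI -/KI set against MIWI +/-, 2 when set against MIWI +/KI, and 5 for MIWI +/KI against MIWI +/-. Fitting only the groups compared gave 2, 2 and 4 in these comparisons. In all, 746, 285 and 1553 genes passed with array weights and 487, 100 and 1474 with only the groups compared. The main fit gave 1243, 485 and 19. The replicate block gave 4 members for MIWI -/- against MIWI +/-, 3 for MIWI -/KI against MIWI +/-, 3 for MIWI -/KI against MIWI +/KI and 4 in the pooled comparison. Over all genes it gave 1166, 1144, 391 and 1536 calls, against 1222, 1243, 485 and 1647 in the main fit. The cause of these changes with the setting was not tested. Every direction here is from 2 arrays per genotype. Among the measured members in MIWI -/- against MIWI +/-, the SE was largest for Cycs (0.30) and Bak1 (0.29). It was 0.13 for Tnfrsf10b, whose levels lay near or below the median intensity of 69.9.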
